A study of Homo sapiens with 12 samples.

Results

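A set of 10 genes that are widely used to mark the epithelial-mesenchymal transition (EMT) was followed across 4 lines of MIA PaCa-2, a human cell line established from a pancreatic carcinoma. The markers were CDH1, EPCAM, CDH2, VIM, FN1, SNAI1, SNAI2, ZEB1, ZEB2 and TWIST1. They were found by gene symbol among the 63086 genes of the deposited table, and all 10 were listed. Of these, 9 passed the minimum used for testing, a mean normalised read count of at least 10 over all libraries, as did 15987 genes in all. TWIST1 did not pass it.

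Each line had 3 libraries, which the sample titles call biological replicates. WT was the unmodified line. CRISPR Control had gone through CRISPR-Cas9 editing and carried only a silent change in TIMP1, the gene of a secreted inhibitor of matrix metalloproteinases, and KO 1 and KO 2 were knockout clones made with plasmid-borne guide RNAs against exon 4 of TIMP1. Each knockout line is 1 clone, so an effect of the knockout and a trait of the clone cannot be told apart within a line. The knockout clones are termed deficient below, and the lines without a coding change in TIMP1 are termed competent. No source states that the libraries of a line came from separate cultures, so p-values measure only the spread between these libraries.

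EMT is a change of epithelial cells, which are held to their neighbours by E-cadherin junctions, towards a motile mesenchymal form with a vimentin cytoskeleton, N-cadherin and a fibronectin matrix. The zinc finger repressors of the SNAIL and ZEB families and the helix-loop-helix factor TWIST1 drive it, and the SNAIL and ZEB proteins bind E-box sequences in the CDH1 promoter and silence the gene. Members of the miR-200 family of microRNAs oppose the change by binding the ZEB1 and ZEB2 messages. Carcinoma cells often rest between these states, and in pancreatic carcinoma loss of E-cadherin accompanies poorly differentiated growth.

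The markers did not move as a block. CDH1 was lower in both deficient lines than in both competent lines, to 10.8% of the WT mean in KO 1 and 7.14% in KO 2. CDH2, its mesenchymal counterpart, was also lower in both, to 16.4% and 67.3% of WT. VIM, EPCAM and ZEB1 each varied by no more than 1.59-fold between the highest and lowest of their 4 line means. FN1 was 7.89-fold higher in CRISPR Control than in WT, and SNAI2 was at 98.2 normalised reads in WT but at 3.30 or less in every edited line.

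The libraries held 26908701 to 36093563 reads in genes. TIMP1 itself stood at 75.7% of the WT mean in CRISPR Control and was lower in the knockout clones, at 45.0% (KO 1) and 32.7% (KO 2). The epithelial keratins KRT8, KRT18 and KRT19 were abundant in all lines, while KRT7 was low, with 85 to 215 reads per library. The sum of the 5 carcinoma markers, these keratins and EPCAM, ran from 55100 to 71344 in CRISPR Control against 174202 to 223391 in the other libraries. Of the markers of other cell types, 2 of 5 leukocyte genes, 2 of 5 fibroblast genes and 4 of 5 acinar or endocrine genes did not exceed 3 reads in any library. All 4 endothelial genes exceeded 3 reads in at least 1 library. The highest of the rest were COL6A3, with 4 to 767 reads, PDGFRA, with up to 328, and KDR, with 8 to 261. In bulk RNA, fewer cells that express a gene and less of its RNA per cell cannot be told apart.

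The microRNAs that target ZEB1 and ZEB2 are shown first because they bind the messages of a pair of repressors described below. The mature sequences are from RefSeq (GRCh38.p14), with the seed, bases 2 to 8, in capitals. The 2 seed groups that differ at 1 position make up the family.
hsa-miR-200a-3p: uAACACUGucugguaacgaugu
hsa-miR-141-3p: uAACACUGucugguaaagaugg
hsa-miR-200b-3p: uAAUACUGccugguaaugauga
hsa-miR-200c-3p: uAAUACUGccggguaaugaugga
hsa-miR-429: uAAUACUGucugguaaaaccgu
These mature sequences lie on chromosome 1 (chr1:1167916-1167937, chr1:1167160-1167181 and chr1:1169055-1169076 for miR-200a, miR-200b and miR-429) and on chromosome 12 (chr12:6964155-6964176 and chr12:6963742-6963764 for miR-141 and miR-200c), all on the plus strand. These libraries do not measure mature microRNAs, and the 5 hairpin genes had 0 reads in every library, which says nothing about their level. MIR200CHG, the host transcript of miR-200c and miR-141, had at most 1 read in a library.

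For 5 of the 10 markers, CDH2, VIM, FN1, ZEB1 and ZEB2, the RefSeq table listed a promoter window of 250 bases before to 50 after the start. CDH1, EPCAM, SNAI1, SNAI2 and TWIST1 had no entry. The windows of FN1, CDH2 (the upstream one of the 2 listed) and ZEB2 are shown because these genes were all higher in CRISPR Control than in WT. Capitals mark matches, on either strand, to the E-box CACCTG, the cyclic AMP response element TGACGTCA, the CCAAT box CCAAT and the GC box GGGCGG.
FN1, chr2:215436019-215436318, minus strand: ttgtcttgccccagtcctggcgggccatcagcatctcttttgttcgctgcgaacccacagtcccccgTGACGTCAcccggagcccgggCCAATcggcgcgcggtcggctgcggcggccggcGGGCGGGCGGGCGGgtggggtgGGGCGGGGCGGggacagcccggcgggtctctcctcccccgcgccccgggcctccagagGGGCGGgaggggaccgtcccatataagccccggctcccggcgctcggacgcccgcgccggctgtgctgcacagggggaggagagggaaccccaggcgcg
CDH2, chr18:28177081-28177380, minus strand: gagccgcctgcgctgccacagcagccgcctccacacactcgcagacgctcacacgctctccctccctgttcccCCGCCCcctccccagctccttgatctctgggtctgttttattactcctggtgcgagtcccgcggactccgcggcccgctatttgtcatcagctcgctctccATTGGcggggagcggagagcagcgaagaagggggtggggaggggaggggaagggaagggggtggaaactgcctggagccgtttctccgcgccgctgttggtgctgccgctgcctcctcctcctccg
ZEB2, chr2:144520070-144520369, minus strand: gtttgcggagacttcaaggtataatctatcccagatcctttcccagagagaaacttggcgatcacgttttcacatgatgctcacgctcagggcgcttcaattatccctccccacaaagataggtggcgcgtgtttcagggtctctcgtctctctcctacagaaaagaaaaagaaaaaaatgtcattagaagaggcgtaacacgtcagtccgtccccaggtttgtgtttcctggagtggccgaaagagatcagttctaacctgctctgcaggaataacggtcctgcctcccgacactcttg
The FN1 window held 1 cyclic AMP response element, which 1.85% of the 35116 promoters in the table hold, 1 CCAAT box, which 34.6% hold, and 6 GC boxes, some of them overlapping, against 45% of promoters with at least 1. The CDH2 window held 1 CCAAT box and 1 GC box, and the ZEB2 window none of the 4 motifs. E-boxes, which are in 20.6% of all promoters, were found in 2 of the 7 ZEB1 windows, with 3 matches in chr10:31318966-31319265, and in none of the windows of the other 4 genes. A match is a stretch of letters and not a shown binding site.

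CDH1 encodes E-cadherin, the adhesion protein of epithelial junctions. The gene (ENSG00000039068.20) lies on the plus strand of chromosome 16 from 68737292 to 68835537 (GRCh38) and its main transcript has 16 exons. WT libraries held 1151, 1163 and 1254 normalised reads of CDH1, that is, reads divided by the size factor of the library. CRISPR Control libraries held 1487, 1344 and 1442. In KO 1 the values were 125, 158 and 102, and in KO 2 they were 103, 83.3 and 68.6. All 6 deficient libraries lay far below all 6 competent ones, and each of them still held at least 68 reads.

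By limma on log2(normalised count + 1), CDH1 in KO 1 differed from WT by a log2 fold change of -3.23 (SE 0.15, adjusted p 4.19e-12), and CDH1 in KO 2 by -3.81 (SE 0.15, adjusted p 2.14e-13). Against CRISPR Control, the differences were -3.49 (SE 0.15, adjusted p 2.04e-13) and -4.07 (SE 0.15, adjusted p 2.00e-14). KO 2 was lower than KO 1 by a log2 fold change of -0.59 (SE 0.15, adjusted p 0.00411), although the libraries of these lines overlapped. CRISPR Control and WT differed by 0.26 (95% confidence interval -0.051 to 0.57, adjusted p 0.150), with all 3 CRISPR Control libraries above the WT libraries.

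**Figure D1:**
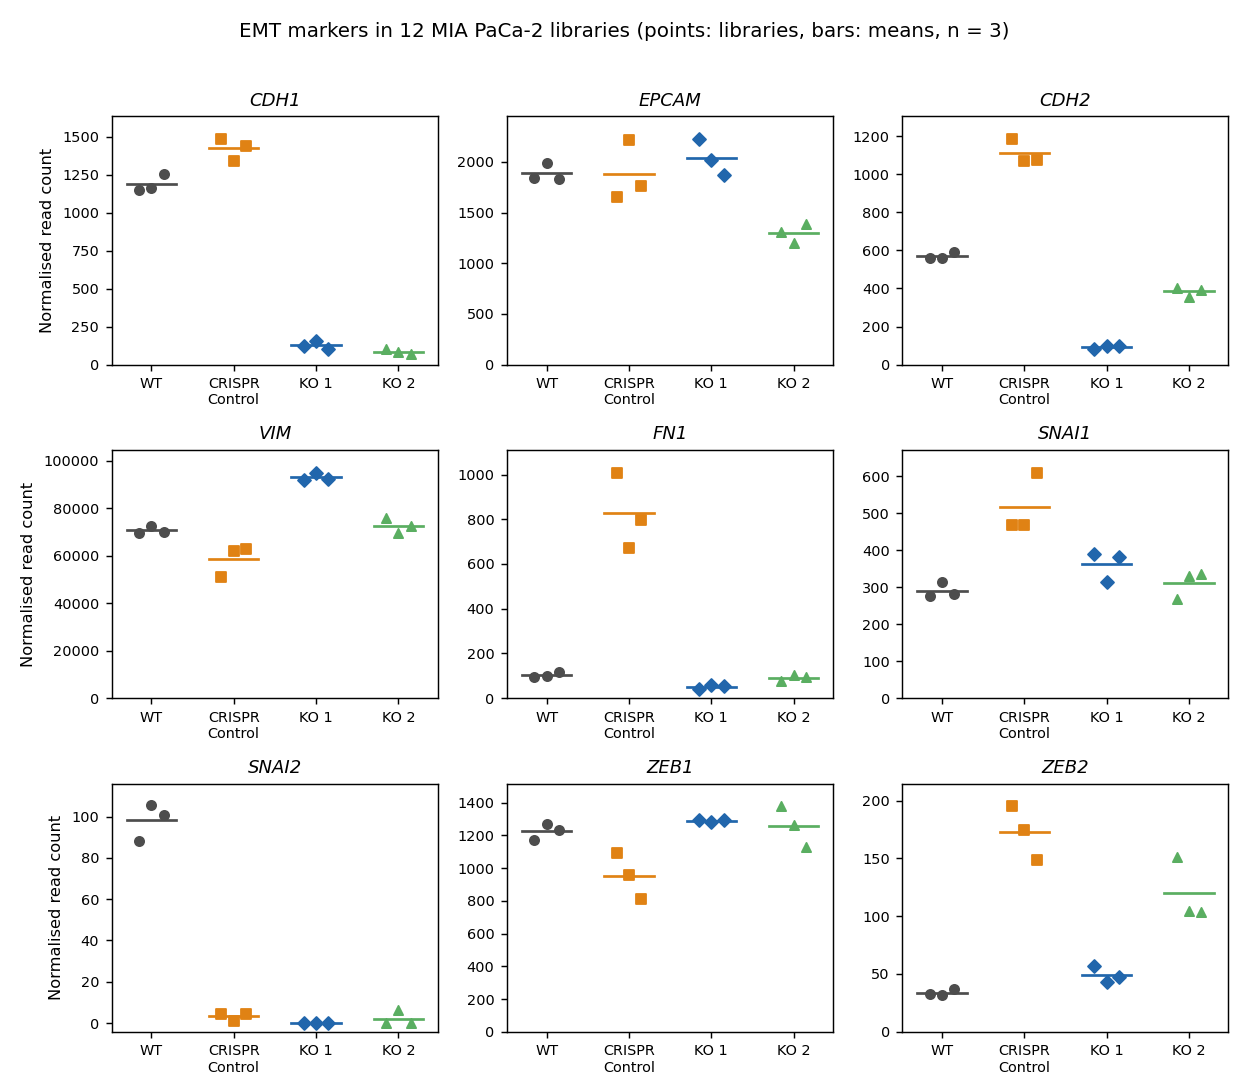
Normalised read counts (vertical axes, linear) of the 9 tested EMT markers in the 12 libraries, grouped by line, where points are libraries and horizontal bars are means of 3. CDH1 and CDH2 lie lower in all 6 KO libraries than in all 6 libraries of WT and CRISPR Control, FN1 stands out in CRISPR Control, and SNAI2 is near 0 outside WT.

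EPCAM encodes a surface adhesion protein of epithelial cells that serves as a carcinoma marker. It (ENSG00000119888.11) lies on chromosome 2 from 47345158 to 47387601, plus strand. Its values were 1845, 1992 and 1833 normalised reads in WT and 1654, 2213 and 1758 in CRISPR Control. KO 1 held 2226, 2017 and 1866, and KO 2 held 1309.65, 1199 and 1389. Only KO 2 stood apart, with its 3 libraries below all others.

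EPCAM in KO 2 was lower than in WT by a log2 fold change of -0.54 (SE 0.10, adjusted p 0.000149) and lower than in KO 1 by -0.65 (SE 0.10, adjusted p 4.49e-05). For KO 1 against WT the difference was 0.10 (95% confidence interval -0.10 to 0.31, adjusted p 0.447), and for CRISPR Control against WT it was -0.022 (95% confidence interval -0.23 to 0.19, adjusted p 0.873). The interval for KO 1 reached no lower than -0.10, where CDH1 differed by -3.23.

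CDH2 encodes N-cadherin, which replaces E-cadherin at the surface in many cells that undergo EMT. The gene (ENSG00000170558.10) lies on the minus strand of chromosome 18 from 27932879 to 28177946. WT held 560.3, 562 and 591 normalised reads, and CRISPR Control 1185, 1071 and 1074. KO 1 held 82.1, 100.1 and 98.9, and KO 2 held 402, 358 and 393. The 4 lines formed 4 separate levels, with CRISPR Control highest and KO 1 lowest, and no library of a line overlapped with another line.

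All 6 pairs of lines differed in CDH2 by limma, a result that 6.37% of the tested genes gave. CRISPR Control was higher than WT by a log2 fold change of 0.96 (SE 0.10, adjusted p 3.27e-07). The value for KO 1 against WT was -2.60 (SE 0.10, adjusted p 5.12e-13) and for KO 2 -0.57 (SE 0.10, adjusted p 0.000126). KO 2 thereby lay above KO 1 by 2.03 (SE 0.10, adjusted p 2.19e-11), opposite to the order of these lines in CDH1.

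To set the cadherins side by side, reads were divided by the exon length of each gene and by the reads in genes of the library. Per exon length the CDH1 to CDH2 ratio for the WT libraries was 2.94 ± 0.05, for CRISPR Control 1.81 ± 0.07, for KO 1 1.94 ± 0.43 and for KO 2 0.312 ± 0.059 (SD, 3 libraries each). By this measure CDH1 message outweighed CDH2 message in every library of 3 lines, with ratios from 1.45 to 3.00. In every KO 2 library it was the lesser, from 0.246 to 0.361. The exon lengths cover all annotated transcripts, 6076 bases for CDH1 and 8583 for CDH2. The ratio is thus raised where only shorter CDH2 transcripts are made and lowered where only shorter CDH1 transcripts are made. In KO 1, where CDH1 and CDH2 fell together, the ratio stayed within the range of the competent lines for 2 of 3 libraries and was 1.45 in the third. That library, KO 1 replicate 3, held near equal normalised counts of CDH1 (102) and CDH2 (98.9) before the division by length.

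**Figure D2:**
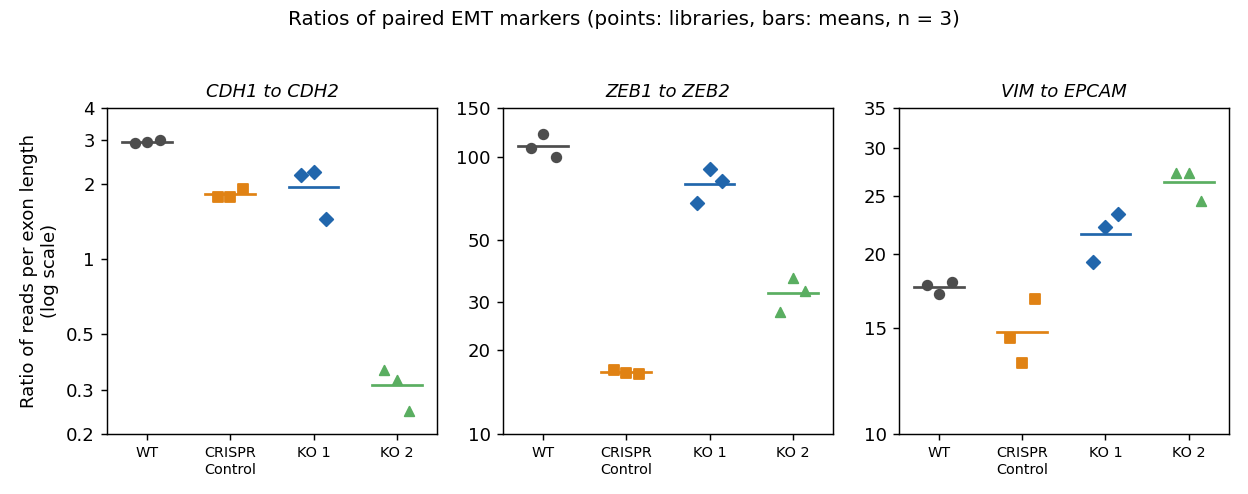
Ratios of reads per exon length (vertical axes, log scale) of CDH1 to CDH2, ZEB1 to ZEB2 and VIM to EPCAM in each library, where points are libraries and bars are means of 3. The CDH1 to CDH2 ratio lies above 1 in all lines but KO 2, and the ZEB1 to ZEB2 ratio runs from 16.7 in CRISPR Control to 110 in WT.

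VIM encodes vimentin, the intermediate filament protein of mesenchymal cells. It (ENSG00000026025.16) lies on chromosome 10 from 17228241 to 17237593, plus strand, and VIM-AS1 overlaps it on the other strand. Its values were 69693, 72625 and 69908 normalised reads in WT, 51007, 61878 and 62991 in CRISPR Control, 91839, 95128 and 92561 in KO 1 and 75976, 69584 and 72587 in KO 2. VIM was by far the most abundant of the markers in every line, at 354 to 568 reads per kilobase of exon per 1000000 reads in genes as line means, against 18.1 to 26.5 for EPCAM, the next. KO 1 lay above and CRISPR Control below all other libraries, and KO 2 overlapped with WT.

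The changes of VIM were small next to those of the cadherins. KO 1 exceeded WT by a log2 fold change of 0.40 (SE 0.08, adjusted p 0.00101), and CRISPR Control was lower by -0.28 (SE 0.08, adjusted p 0.00899). KO 2 differed from WT by 0.039 (95% confidence interval -0.14 to 0.21, adjusted p 0.713). The VIM to EPCAM ratio per exon length was 17.6 ± 0.4 in WT and 14.8 ± 1.9 in CRISPR Control. For KO 1 it was 21.6 ± 2.0 and for KO 2 26.3 ± 1.6 (SD, 3 libraries each), and all 6 deficient libraries lay above every competent one. Neither gene alone separated these libraries. Against WT, VIM was called higher in KO 1 only and EPCAM lower in KO 2 only, so the clones did not share a change. How often other pairs of genes separate in this way was not tested.

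FN1 encodes fibronectin, a matrix protein that mesenchymal cells lay down. The gene (ENSG00000115414.21) is on the minus strand of chromosome 2 from 215360440 to 215436073, with 46 exons in its main transcript. WT held 96.2, 99.1 and 119 normalised reads and CRISPR Control 1009, 671 and 799. KO 1 held 42.1, 58.5 and 53.0, and KO 2 held 75.4, 103 and 93.8. CRISPR Control was the one line with substantial FN1, KO 1 was below the others, and KO 2 overlapped with WT.

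CRISPR Control was higher than WT in FN1 by a log2 fold change of 2.95 (SE 0.18, adjusted p 7.12e-11). KO 1 was lower than WT by -1.03 (SE 0.18, adjusted p 0.000149), while KO 2 differed from WT by -0.21 (95% confidence interval -0.58 to 0.15, adjusted p 0.317). Measured against CRISPR Control, the deficient lines were lower by -3.98 (SE 0.18, adjusted p 3.58e-13) and -3.17 (SE 0.18, adjusted p 1.06e-11). Under quantile normalization KO 2 was also called lower than WT, at -0.54 (adjusted p 0.0117, within 0.0117 to 0.723 over all alternatives).

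SNAI1 encodes the repressor SNAIL. It (ENSG00000124216.4) lies on chromosome 20 from 49982980 to 49988886, plus strand. WT held 276, 313 and 282 normalised reads, CRISPR Control 468, 469 and 609.9, KO 1 389, 313 and 383, and KO 2 268, 331 and 336. CRISPR Control stood above all other libraries, and the remaining lines lay close together.

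For CRISPR Control against WT the log2 fold change of SNAI1 was 0.82 (SE 0.13, adjusted p 3.53e-05). Neither deficient line passed the test against WT, with 0.31 for KO 1 (SE 0.13, adjusted p 0.0703) and 0.095 for KO 2 (SE 0.13, adjusted p 0.554). KO 1 against WT passed the test without KO 1 replicate 2 (0.41, adjusted p 0.0351) and without CRISPR Control replicate 3 (adjusted p 0.0452), within adjusted p-values of 0.0280 to 0.215 over all alternatives. Against CRISPR Control both were lower, KO 1 by -0.51 (SE 0.13, adjusted p 0.00231) and KO 2 by -0.72 (SE 0.13, adjusted p 7.38e-05).

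SNAI2 encodes SLUG, the relative of SNAIL. It (ENSG00000019549.13) lies on the minus strand of chromosome 8 from 48917598 to 48921740. The WT libraries had 78, 116 and 106 reads, or 88.3, 105 and 101 normalised reads. CRISPR Control had 5, 1 and 4 reads. KO 1 had 0 reads in each library, which allows up to 3 reads, and KO 2 had 0, 7 and 0. All 9 libraries of the edited lines lay below the 3 WT libraries.

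With 3 reads per library as the floor, SNAI2 in KO 1 was at least 31.8-fold lower than the WT mean. CRISPR Control differed from WT by a log2 fold change of -4.64 (SE 0.68, adjusted p 1.44e-05) and KO 2 by -5.68 (SE 0.68, adjusted p 1.06e-06). The 7 reads of KO 2 were all in replicate 2, and without it KO 2 was called lower than CRISPR Control (adjusted p 0.00795), which it was not with it (adjusted p 0.180). The call of KO 1 against CRISPR Control (adjusted p 0.0162) was a contrast of 0 reads with 1 to 5 reads, and it was lost without CRISPR Control replicate 1 (adjusted p 0.0526) or replicate 3 (adjusted p 0.0561). Over all its alternatives the adjusted p ran from 0.00383 to 0.119.

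ZEB1 encodes the first of the ZEB repressors. It (ENSG00000148516.23) lies on chromosome 10 from 31318495 to 31529814, plus strand, where ZEB1-AS1 overlaps it on the other strand. WT held 1174, 1270.1 and 1233.5 normalised reads and CRISPR Control 1093.5, 958 and 809. KO 1 held 1292, 1280.5 and 1291, and KO 2 held 1378, 1266 and 1130.0. CRISPR Control was below all other libraries, and WT, KO 1 and KO 2 lay at a like level.

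ZEB1 was lower in CRISPR Control than in WT by a log2 fold change of -0.37 (SE 0.10, adjusted p 0.00391). KO 1 differed from WT by 0.072 (95% confidence interval -0.14 to 0.28, adjusted p 0.613) and KO 2 by 0.034 (95% confidence interval -0.17 to 0.24, adjusted p 0.792). Both were higher than CRISPR Control, by 0.44 (SE 0.10, adjusted p 0.000706) and 0.41 (SE 0.10, adjusted p 0.00135). The intervals of ZEB1 against WT reached no higher than 0.28 in either deficient line.

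ZEB2 encodes the second ZEB repressor. It (ENSG00000169554.23) lies on the minus strand of chromosome 2 from 144364364 to 144521057, with ZEB2-AS1 among the 5 genes annotated on the other strand. WT held 32.8, 31.8 and 37.1 normalised reads and CRISPR Control 195, 174 and 148. KO 1 held 57.3, 42.8 and 47.7, and KO 2 held 151, 104 and 104. WT was lowest, KO 1 next, and the ranges of KO 2 and CRISPR Control overlapped.

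ZEB2 exceeded WT on the log2 scale by 2.31 in CRISPR Control (SE 0.19, adjusted p 8.79e-09), by 1.77 in KO 2 (SE 0.19, adjusted p 2.92e-07) and by 0.52 in KO 1 (SE 0.19, adjusted p 0.0421). KO 2 exceeded KO 1 by 1.25 (SE 0.19, adjusted p 4.01e-05). The KO 1 call was the least firm of these. It was lost without any 1 of WT replicates 1, 2 and 3 or of KO 1 replicates 1 and 3, with adjusted p-values up to 0.162, and by edgeR (adjusted p 0.0807) and DESeq2 (adjusted p 0.0806) on recovered reads, and its range over all alternatives was 0.0301 to 0.162. KO 2 against CRISPR Control, at -0.54 (SE 0.19, adjusted p 0.0183), was lost without CRISPR Control replicate 1 (0.0765), KO 2 replicate 2 (0.0809) or KO 2 replicate 3 (0.0779) and at equal library totals (0.0625), over a range of 0.00135 to 0.0809.

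Per exon length ZEB1 outweighed ZEB2 in every library. The ratio of ZEB1 to ZEB2 was 110 ± 10.2 for WT, 80.2 ± 11.2 for KO 1, 32.4 ± 4.5 for KO 2 and 16.7 ± 0.2 for CRISPR Control (SD, 3 libraries each), with no overlap between the lines. The exon length used for ZEB2 covers all annotated transcripts and is 26151 bases, against 8650 for ZEB1, which lowers the per-length value of ZEB2 where only shorter transcripts are made.

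TWIST1 (ENSG00000122691.13), on the minus strand of chromosome 7 from 19020991 to 19117636, had 0 reads in all 12 libraries, which allows up to 3 reads in each. No fold change is given. Its paralog TWIST2 was read in all lines, with line means from 195 in CRISPR Control to 626 in KO 1. A 0 at this depth says that TWIST1 was not detectable in any line.

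**Figure D3:**
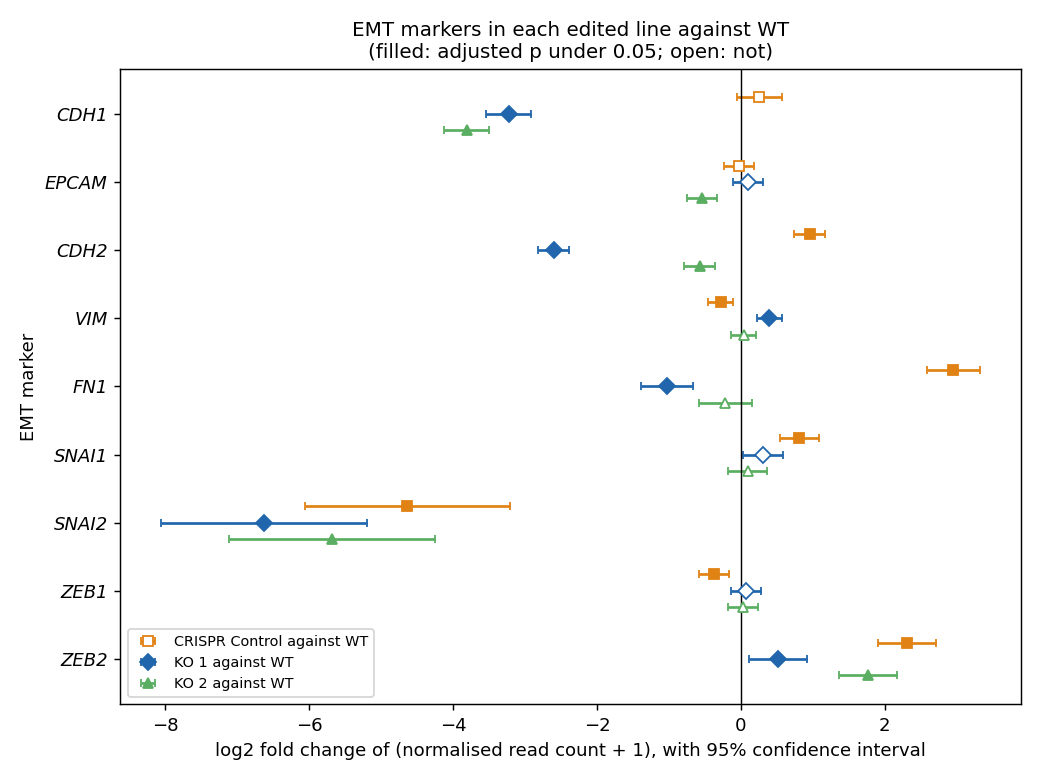
Log2 fold changes of the 9 tested EMT markers in CRISPR Control, KO 1 and KO 2 against WT (horizontal axis), with 95% confidence intervals from limma, where filled symbols passed an adjusted p of 0.05. CDH1 lies left of 0 in both KO lines and not in CRISPR Control, CDH2 and FN1 lie on opposite sides of 0 in CRISPR Control and KO 1, and SNAI2 lies left of 0 in all 3 lines, at a KO 1 value that depends on the pseudocount because KO 1 had 0 reads.

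Counted over the 9 tested markers, 6 differed between KO 1 and WT, where 35.5% of all tested genes did (18% higher and 17.5% lower). Of these, 2 were higher (VIM and ZEB2) and 4 lower (CDH1, CDH2, FN1 and SNAI2). Between KO 2 and WT 5 markers differed, against 55% of all genes (27.1% higher and 27.9% lower), 1 higher (ZEB2) and 4 lower (CDH1, EPCAM, CDH2 and SNAI2). CRISPR Control differed from WT in 7 markers against 53.4% of all genes (27.2% higher and 26.3% lower), with CDH2, FN1, SNAI1 and ZEB2 higher and VIM, SNAI2 and ZEB1 lower. These 3 comparisons share the WT libraries, so their counts are not independent.

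Against CRISPR Control, 8 of the 9 markers differed in KO 1 (63% of all genes, 31.7% higher and 31.3% lower) and 8 in KO 2 (67.7% of all genes, 33.3% higher and 34.4% lower). In each, VIM and ZEB1 were higher and 6 markers lower. KO 2 and KO 1 differed in 6 markers (38.2% of all genes, 18.1% higher and 20.1% lower), CDH2, FN1 and ZEB2 being higher and CDH1, EPCAM and VIM lower in KO 2. In the mean of the deficient against the mean of the competent lines 7 markers differed, against 65.9% of all genes (32.9% higher and 33% lower), with VIM and ZEB1 higher and CDH1, EPCAM, CDH2, FN1 and SNAI2 lower. In KO 2 against WT the number of markers called was near the share of all genes. Of the competent lines, FN1 was high only in CRISPR Control and SNAI2 only in WT. Their pooled fold changes ran from -3.57 to -0.62 and from -6.16 to -1.52 over the alternatives, and both stayed called. In the pooled comparison the EPCAM call was lost at equal library totals (-0.15, adjusted p 0.0632) and with CRISPR Control alone as the reference (adjusted p 0.0505), and the ZEB1 call with WT alone (0.053, adjusted p 0.635). SNAI1, not called there (-0.21, adjusted p 0.0564), was called as lower without any 1 of CRISPR Control replicates 1 and 2, KO 1 replicate 1 and KO 2 replicate 3, with adjusted p-values of 0.0349 to 0.0478. It was also called lower under quantile normalization (-0.33, adjusted p 0.00350) and with CRISPR Control alone as the reference (-0.61, adjusted p 8.51e-05). With WT alone SNAI1 was not called (0.20, adjusted p 0.144). Without CRISPR Control replicate 2, EPCAM was called higher in KO 1 than in CRISPR Control (0.25, adjusted p 0.0200). Scaling every library to the same total, not by size factors, moved the share of calls that were higher in KO 2 from 49.3% to 59.9% against WT and from 47.4% to 65.5% against KO 1 over all genes, and the median of all genes from -0.0084 to 0.11 in KO 2 against CRISPR Control, and turned the direction of no called marker.

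The libraries did not overlap for 8 markers in KO 1 against WT (52.6% of all genes), 5 in KO 2 against WT (62.9%), 8 in CRISPR Control against WT (55.8%), 8 in KO 1 (65.1%) and 7 in KO 2 (67.7%) against CRISPR Control, and 5 in KO 2 against KO 1 (53.1%). All 9 markers differed among the 4 lines by the test of any difference, as 80.4% of all genes did. CDH2 and ZEB2 differed in all 6 pairs of lines, and 5 markers in at least 5 pairs, as 26.9% of all genes did.

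CDH1 and CDH2 were the markers whose 6 deficient libraries did not overlap with the 6 competent ones, a separation seen in 24.7% of the tested genes. Their pooled differences were -3.65 (SE 0.10, adjusted p 6.60e-16) for CDH1 and -2.06 (SE 0.07, adjusted p 1.42e-14) for CDH2. CDH1 alone met the stricter rule of differing from WT in KO 1 and in KO 2 in the same direction but not in CRISPR Control, as 10.2% of the tested genes did. By DESeq2 on recovered reads it did not meet it, because the rise of CDH1 in CRISPR Control passed there (0.26, adjusted p 0.0324). Over all alternatives that adjusted p ran from 0.0309 to 0.279. CDH2 missed the rule because it was higher in CRISPR Control.

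The range of the line means gives another view of how unevenly the markers varied. The median range over the tested genes was 0.72 on the log2 scale and the 95th percentile 3.65. SNAI2 (at least 4.99, with KO 1 at the floor of 3 reads), CDH1 (4.07) and FN1 (3.98) lay above that percentile and CDH2 (3.56) just below it. EPCAM (0.65) and VIM (0.67) lay below the median, and ZEB1 (0.44) ranged least.

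The surroundings of CDH1 are described in most detail because another classical cadherin gene, CDH3, lies beside it. Of the genes within 1 Mb of CDH1, 38 were tested. In the deficient against the competent lines 27 of them were lower, where 33% of all tested genes were, and 3 were higher, where 32.9% were. Their median log2 fold change was -0.39, and that of all tested genes was 0.0023. The 3 higher genes were PSMB10, HAS3 and CYB5B.

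CDH3, the gene of P-cadherin, starts at -101103 bases relative to the start of CDH1. Its normalised reads were 427 ± 38.6 for WT, 1319 ± 63.7 for CRISPR Control, 7.76 ± 4.13 for KO 1 and 33.9 ± 8.9 for KO 2 (SD, 3 libraries each). It was lower than in WT by -5.71 on the log2 scale (SE 0.25, adjusted p 1.86e-12) for KO 1 and by -3.65 (SE 0.25, adjusted p 5.50e-10) for KO 2. It was also higher in CRISPR Control than in WT, by 1.63 (SE 0.25, adjusted p 2.31e-05). The neighbouring cadherins were thus both low in both deficient lines, but KO 2 held more CDH3 and less CDH1 than KO 1.

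In the pooled comparison the lowest value after that of CDH3 was -0.98. Against WT 20 of the 38 genes were lower and 2 higher in KO 1, where 17.5% of all genes were lower and 18% higher. In KO 2, 22 were lower and 3 higher, where 27.9% and 27.1% of all genes were. In CRISPR Control against WT 5 were lower and 10 higher (26.3% and 27.2% of all genes). Under the other scalings 24 to 29 of the 38 were lower in the pooled comparison. For CDH2 no gene within 1 Mb passed the minimum, so it cannot be described in the same way. The other markers were counted in the pooled comparison, where 33% of all genes were lower and 32.9% higher. Of 12 genes near FN1, 9 were lower and 2 higher, and of 10 near ZEB1, 7 were higher and 0 lower. Near VIM 5 of 9 were higher and 0 lower, near EPCAM 4 of 18 higher and 5 lower, and near SNAI1 12 of 28 higher and 5 lower. SNAI2, TWIST1 and ZEB2 had at most 3 tested neighbours. A prevailing direction was thus not seen near CDH1 alone.

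**Figure D4:**
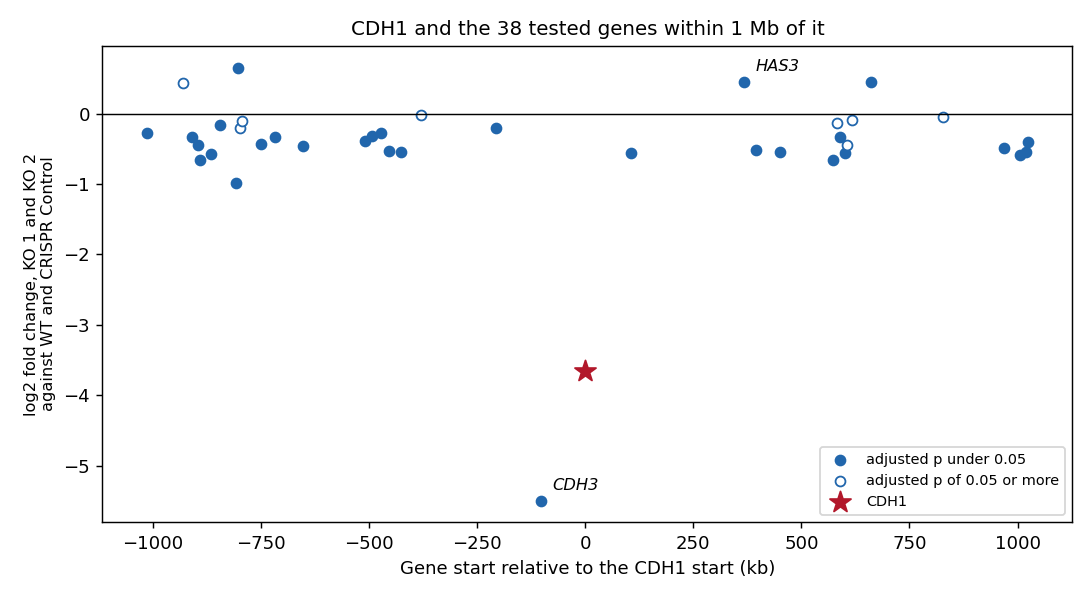
Log2 fold change of KO 1 and KO 2 against WT and CRISPR Control (vertical axis) for CDH1 (star) and the 38 tested genes within 1 Mb of it, by the distance of the gene start from the CDH1 start in kilobases (horizontal axis), where filled points passed an adjusted p of 0.05. CDH3 lies at -5.49, and 27 of the 38 genes are called lower.

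A further 8 lists of genes that act with the markers were described in the same way. Among 17 tested EMT transcription factors beyond the markers, 15 differed between CRISPR Control and WT, where 53.4% of all tested genes did, 5 higher and 10 lower, with a median log2 fold change of -0.77. KO 1 differed from WT in 10 (35.5% of all genes) and KO 2 in 11 (55% of all genes), with 7 higher in each. The widest range was that of FOXQ1, a forkhead factor, with 2073 ± 19.9 normalised reads for WT, 57.7 ± 3.4 for CRISPR Control, 2448 ± 122 for KO 1 and 2526 ± 113 for KO 2. TCF4 was lower than WT in CRISPR Control by -2.65 (adjusted p 3.90e-09) and in KO 2 by -2.01 (adjusted p 1.52e-07), and not called in KO 1 (-0.24, adjusted p 0.391). RUNX2, a runt factor, was lower in CRISPR Control by -1.58 (adjusted p 4.72e-09) and higher in KO 1 and KO 2 by 0.90 and 0.96 (adjusted p 1.71e-05 and 3.26e-06).

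Of 24 regulators that hold the epithelial state, 10 fell under the minimum. They included GRHL2, which had at most 6 reads, MIR200CHG and the 5 hairpins. Of the 14 tested, 7 were lower and 1 higher in KO 1 than in WT, where 17.5% of all genes were lower and 18% higher. In KO 2, 8 were lower and 4 higher, where 27.9% and 27.1% of all genes were. GRHL3, a grainyhead factor of epithelia, was lower in both deficient lines and higher in CRISPR Control than in WT, with 1197 ± 99.7 normalised reads for WT, 1772 ± 209.6 for CRISPR Control, 134 ± 20.46 for KO 1 and 163 ± 20.44 for KO 2. ESRP1, an epithelial splicing regulator, was at 19.9 ± 6.5 in WT and 259.8 ± 18.4 in CRISPR Control, and at 2.85 ± 2.67 and 6.52 ± 5.72 in KO 1 and KO 2. GATA6, a factor of well differentiated pancreatic carcinoma, was higher than WT in all 3 edited lines, by 2.39 (adjusted p 1.84e-07) in CRISPR Control, 0.87 (adjusted p 0.01) in KO 1 and 3.18 (adjusted p 3.35e-09) in KO 2.

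The 28 tested epithelial junction and surface genes moved both ways. KO 1 against WT gave 9 higher and 7 lower (18% and 17.5% of all genes), KO 2 against WT 8 higher and 12 lower (27.1% and 27.9%), and CRISPR Control against WT 14 higher and 7 lower (27.2% and 26.3%). PKP2, a plakophilin of desmosomes, was at 297 ± 33.05 normalised reads in WT and 1200.4 ± 39.1 in CRISPR Control, but at 9.69 ± 4.65 in KO 1 and 24.7 ± 4.8 in KO 2. MAL2, an apical transport protein, was present in CRISPR Control (236 ± 18.4) and near 0 in WT (0.953 ± 1.650), KO 1 (0.750 ± 1.299) and KO 2 (2.698 ± 0.830). CDH3 and PKP2 were lower in both deficient lines, as CDH1 was, while the list as a whole held both directions.

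Among 13 catenins and cadherin partners, 12 differed between the deficient and competent lines, where 65.9% of all genes did, 6 in each direction. CTNNB1, the beta-catenin that binds the cadherin tail, was at 7505 ± 265 normalised reads in WT and 12390 ± 257 in CRISPR Control, and at 6803 ± 150 and 6225 ± 76.2 in KO 1 and KO 2. Against WT it was higher in CRISPR Control by 0.72 (adjusted p 9.75e-09) and lower in KO 2 by -0.27 (adjusted p 0.000950). CTNNB1 was not called in KO 1 (-0.14, adjusted p 0.0762). NECTIN3, an adhesion protein, was lower than WT by -2.62 (adjusted p 1.47e-09) in KO 1 and -1.70 (adjusted p 2.00e-07) in KO 2 and higher by 1.64 (adjusted p 3.70e-07) in CRISPR Control. PTPN14, a phosphatase, was lower in CRISPR Control by -1.02 (adjusted p 3.81e-07) and not called in KO 1 (-0.098, adjusted p 0.528) or KO 2 (-0.019, adjusted p 0.898).

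Of 14 other cadherins 5 were tested, and all 5 differed between CRISPR Control and WT, where 53.4% of all genes did, 4 of them higher. CDH10 rose there by 3.84 (adjusted p 5.92e-09), from 10.7 ± 2.4 to 167 ± 31.7 normalised reads. CDH24 was lower than WT in all 3 edited lines, by -0.78 (adjusted p 2.71e-06) in CRISPR Control, -0.51 (adjusted p 0.000550) in KO 1 and -0.54 (adjusted p 0.000142) in KO 2. CDH6 and CDH18 were the others higher in CRISPR Control, beside CDH3. In KO 1 against WT 3 of the 5 were lower and none higher, where 17.5% of all genes were lower. KO 2 against WT had 2 higher and 2 lower, where 27.1% and 27.9% of all genes were.

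The 26 tested mesenchymal cytoskeleton and surface genes did not share a direction either. In KO 1 against WT 9 were higher and 8 lower (18% and 17.5% of all genes), in KO 2 against WT 11 and 8 (27.1% and 27.9%), and in CRISPR Control against WT 8 and 10 (27.2% and 26.3%). S100A4, a calcium-binding protein of motile cells, was lower than WT by -1.96 (adjusted p 5.03e-10) in KO 1 and -2.66 (adjusted p 2.74e-12) in KO 2, while CRISPR Control differed by 0.039 (adjusted p 0.817). NT5E (CD73) was higher by 0.91 (adjusted p 1.25e-08) and 1.00 (adjusted p 1.48e-09) in the deficient lines and lower by -1.67 (adjusted p 8.43e-13) in CRISPR Control. PDGFRA, a growth factor receptor of mesenchymal cells, stood out in KO 2 with 283 ± 18.5 normalised reads, against 23.6 ± 2.2 in WT, 2.95 ± 3.71 in CRISPR Control and 8.41 ± 3.71 in KO 1.

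Of the 12 tested fibronectin receptors and assembly genes, 7 were higher and 3 lower in KO 1 than in WT, where 35.5% of all genes differed. In KO 2, 9 were higher and 2 lower (55% of all genes differed), and in CRISPR Control 4 were higher and 6 lower (53.4%). ITGB3, an integrin subunit, was higher by 1.12 (adjusted p 2.85e-07) in KO 1 and 0.41 (adjusted p 0.00509) in KO 2 and lower by -1.47 (adjusted p 3.15e-09) in CRISPR Control. TNC, the matrix protein tenascin, went with FN1 in CRISPR Control, where it rose from 212 ± 16.3 in WT to 790 ± 153 normalised reads, and was at 8.61 ± 5.63 and 14.3 ± 3.5 in KO 1 and KO 2. FBN1, fibrillin, was higher in CRISPR Control by 2.71 (adjusted p 3.25e-09) and in KO 2 by 1.399 (adjusted p 1.56e-05) and lower in KO 1 by -0.99 (adjusted p 0.00109).

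All 16 corepressors that SNAIL and ZEB factors bind were tested. In KO 2 all 16 were lower than in WT, where 27.9% of all genes were, with a median of -0.45, and 13 to 16 were lower under the other scalings. In KO 1 6 were lower and none higher, where 17.5% of all genes were lower and 18% higher. In CRISPR Control 7 were lower and 2 higher, where 26.3% and 27.2% of all genes were. Counted in either direction, the number called was near that of all genes in both (35.5% and 53.4%), but more of the calls were lower. EZH2, the histone methyltransferase, fell by -0.51 (adjusted p 1.01e-05) in KO 1, -1.07 (adjusted p 2.36e-10) in KO 2 and -0.28 (adjusted p 0.00218) in CRISPR Control. SMARCA4, a chromatin remodeller, was lower in all 3 edited lines, by -0.97, -0.99 and -0.93 (adjusted p 1.14e-07, 3.46e-08 and 9.15e-08). SUZ12, a partner of EZH2 in the Polycomb complex, was lower in KO 2 by -0.40 (adjusted p 0.00210), higher in CRISPR Control by 0.44 (adjusted p 0.00103) and not called in KO 1 (-0.18, adjusted p 0.175).

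**Figure D5:**
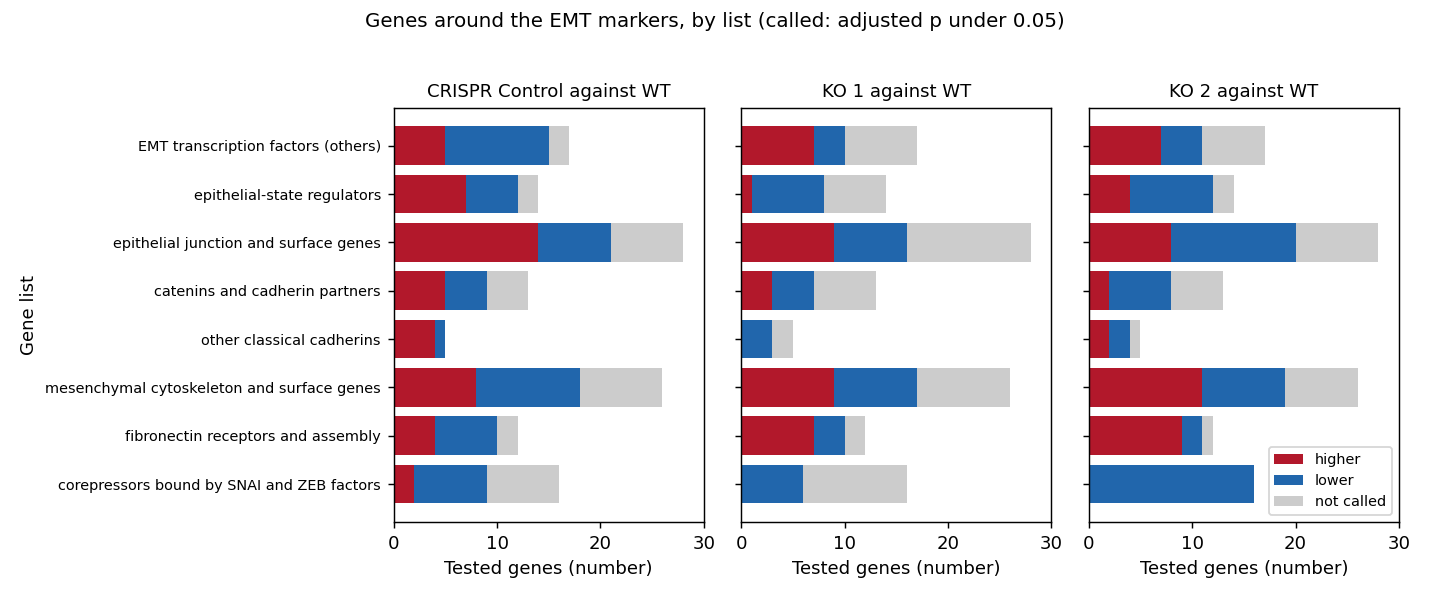
Number of tested genes (horizontal axes) that were called higher, called lower or not called by limma at an adjusted p of 0.05 in each of 8 lists, for CRISPR Control, KO 1 and KO 2 against WT. The 16 corepressors are all lower in KO 2, and the epithelial and mesenchymal surface lists hold both directions in every line.

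For each marker the genes with the most similar course over the 12 libraries were found by Pearson correlation on the log2 scale. Libraries of a line lie together, so these values mostly reflect 4 line levels. Many genes share a course in such a design. For CDH1, 663 genes reached r of 0.9, led by LINGO1 (0.99), CDC6 (0.99) and EXO1 (0.99). LINGO1 went from 308 and 312 normalised reads in WT and CRISPR Control to 61.3 and 34.4 in KO 1 and KO 2, and CDC6 from 3518 and 3939 to 1958 and 1642. CDH2 was most like SEMA3A (r 1.00), ZNF608 (1.00) and MYPN (1.00), with 237 genes at 0.9 or more. SEMA3A repeated its 4 levels, at 1099 for WT, 3608 for CRISPR Control, 80.5 for KO 1 and 722 for KO 2.

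FN1 ran with ZFHX4, S1PR3 and KAZN (r 0.99 each, 708 genes at 0.9 or more), all highest in CRISPR Control. ZEB2 ran with CHRM3, KCTD12 and GPCPD1 (r 0.98 each, 155 genes). SNAI2 was most like RGS4 (r 0.96), which went from 1145 normalised reads for WT to 10.6 for CRISPR Control, 0 for KO 1 and 0.292 for KO 2, and then KCNC1 (0.96) and TRIP6 (0.96), with 30 genes in all. The genes most like the other markers were PSPH, ALDH2 and TSPAN6 for VIM (r 0.97 each, 114 genes), ANP32B, PTMA and RCN2 for EPCAM (0.97 each, 54 genes), AKAP9, SYCP2 and ATM for ZEB1 (0.97, 0.97 and 0.96, 94 genes) and CPLX1, IER5L and FBXO27 for SNAI1 (0.97, 0.95 and 0.95, 30 genes).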

How the data were processed

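The authors trimmed reads with Cutadapt, mapped them to GRCh38 with STAR, used featureCounts to obtain gene counts and scaled these by DESeq2 size factors, so the deposited values are a signal of scaled read counts for each library. The strand setting and annotation release are not given in the sources used here, so reads from a gene and an overlapping antisense gene cannot be told apart. The table held 63086 genes and 1 row without an identifier, which was left out. A further 4 numeric columns, equal to the line means, were left aside. Values were whole multiples of 1 step per library, and dividing by it returned whole reads for 100% of positive values within 0.01 reads. Floors of 3 reads cover counting error only.

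The main test was limma 3.58.1 (R 4.3.3) with trend on log2(normalised count + 1) for the 15987 genes with a mean of at least 10, fitted to 4 line means over 12 libraries, two-sided, with Benjamini-Hochberg adjustment over all tested genes at 0.05. The log2(value + 1) scale understates changes of low genes. edgeR 4.0.16 and DESeq2 1.42.0 on the recovered reads were alternatives, and called 5794 and 5894 genes in KO 1 against WT, 8969 and 8915 in KO 2 against WT and 8474 and 8542 in CRISPR Control against WT, where limma called 5682, 8791 and 8541. Further alternatives were other pseudocounts (0.5 and 10), minimum means (1 and 50), scalings, a minimum log2 fold change of 1, a replicate block, fits to the compared lines only and leaving out each library. The scripts recovered known changes in simulated counts, in which a small set of genes differed in KO 1 alone and the spread was fixed. Far more genes differ between the real lines, so the simulation checks the scripts and not the error rate in these data. Libraries of a line differed by more than counting noise. Identifiers matched GENCODE 44 (GRCh38) for 99.1% of genes without the version, and coordinates and exon lengths are from it. Promoter and microRNA sequences are from RefSeq tables of GRCh38.p14.

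The markers, lists and tests were chosen with earlier results of these data known. Named genes were the 10 markers, TIMP1, the 3 genes of each list with the widest range of line means among those with a mean of at least 50, and the 3 genes most correlated with each tested marker. The genes near CDH1, TWIST2, GRHL2, CDH6, CDH18, MIR200CHG and single cell type markers were named after their values were seen.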

Additional observations from a re-analysis of the deposited data

Results flagged for a closer look

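Both knockout clones were compared with the same references, and the results that differed between them by the limma test of KO 2 against KO 1 are given here. Of the 9 tested EMT markers 6 differed, by log2 fold changes of 2.03 for CDH2, 1.25 for ZEB2, 0.81 for FN1, -0.36 for VIM, -0.59 for CDH1 and -0.65 for EPCAM. Adjusted p-values ran from 2.19e-11 for CDH2 to 0.00411 for CDH1. The cadherins went opposite ways, with CDH2 higher and CDH1 lower in KO 2.

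Of the 23 list genes named, which were chosen for a wide range of line means, 10 differed in the same test, near the 38.2% of all tested genes that did. The 6 that were higher in KO 2 were PDGFRA (5.00), FBN1 (2.39), GATA6 (2.31), CDH3 (2.06), PKP2 (1.37) and NECTIN3 (0.91). The 4 that were lower were TCF4 (-1.77), ITGB3 (-0.71), S100A4 (-0.70) and EZH2 (-0.56). Each knockout line is a single clone with 3 libraries, so a difference between KO 1 and KO 2 is one between these clones.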

How the results depend on the processing

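Of 63 marker fold changes, 28 kept their direction and their side of the threshold under every alternative, and none that was called changed direction. A minimum log2 fold change of 1 lowered the number of markers called most, to 3 in KO 2 against WT, 3 in CRISPR Control against WT, 5 in KO 1 against CRISPR Control, 3 in KO 2 against CRISPR Control, 2 in KO 2 against KO 1 and 4 in the pooled comparison, because small changes no longer count. DESeq2 put 0 markers in the intersection. Leaving out 1 library at a time gave 5 to 7 markers in KO 1, 5 in KO 2 and 7 in CRISPR Control against WT, 7 to 9 for KO 1 and 7 to 8 for KO 2 against CRISPR Control, 6 between the KO lines, 7 to 8 in the pooled comparison, 9 for any difference and 1 in the intersection. Directions turned only for fold changes that were not called. In the pooled comparison ZEB2 (-0.011) became 0.043 at equal library totals, 0.013 by edgeR, 0.0074 by DESeq2 and -0.099 to 0.037 without single libraries. With WT alone as the reference ZEB2 was called higher by limma (1.14, adjusted p 1.33e-05), and with CRISPR Control alone lower (-1.16, adjusted p 4.63e-06). The pooled ZEB2 value thus does not show that ZEB2 was alike in the lines. The pooled SNAI1 value (-0.21) became 0.20 with WT alone. SNAI1 in KO 2 against WT became -0.086 under quantile normalization, and ZEB1 in KO 2 against KO 1 became 0.065 at equal totals. Without single libraries ZEB1 ran from -0.035 to 0.109 in KO 2 against WT and from -0.106 to 0.037 in KO 2 against KO 1, and EPCAM from -0.147 to 0.063 in CRISPR Control against WT. The causes were not tested. The replicate numbers did not pair the libraries (r of deviations -0.13 to 0.16, 2 of 18 pairs over 0.1), and with a replicate block 6, 5, 7, 8, 8, 6 and 7 markers were called, as without it. Depth limits SNAI2 outside WT, ZEB2 in WT and TWIST1.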
